A study of Homo sapiens with 18 samples.

Results

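The nuclear genes of complex I, the mitochondrial enzyme that IACS-010759 (IACS) inhibits, were followed through 18 RNA sequencing libraries of leukemia cells. They were taken by name: every symbol made of NDUFA, NDUFB, NDUFC, NDUFS, NDUFV or NDUFAF and a number, together with NDUFAB1, whose mean over the libraries was at least 1 TPM, where TPM are reads relative to gene length, scaled so that each library sums to 1000000. This gave 46 genes of the 45372 symbols in the table, and of the 14117 symbols that reached the same mean. No gene with such a name was lost to the limit, since the lowest, NDUFAF5, had a mean of 3.28 TPM, followed by NDUFA9 with 6.66 TPM. Just outside, NDUFA4L2 had a mean of 1.03 TPM and the antisense transcript NDUFV2-AS1 had 0.665 TPM, and neither has a name of this form. By role, the 46 genes are 7 core subunits, 30 accessory subunits, 8 assembly factors and NDUFA4, which carries a complex I name but is now placed with complex IV.

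The cells were MV4-11 and THP1, established lines of acute myeloid leukemia (AML) in which KMT2A is rearranged. MV4-11 also carries a FLT3 internal tandem duplication, and the labels name no engineered change in either cell line. In each line there were 3 libraries of cells given DMSO, the vehicle, 3 of cells given 50 nM IACS for 8 h and 3 of cells given 50 nM IACS for 24 h, all from total RNA. The labels call the 3 libraries of a group independent replicates and give no timepoint for the DMSO cells, so the same 3 DMSO libraries of a line stand against both timepoints. Each line descends from the cells of 1 patient, and what differs between the lines cannot be told apart from what differs between any pair of AML cell lines.

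Complex I takes electrons from NADH, passes them along a chain of iron-sulfur clusters to ubiquinone, and pumps protons across the inner mitochondrial membrane. Its peripheral arm holds the N module, where NADH is oxidized, and the Q module, where ubiquinone is reduced, while its membrane arm pumps. The core subunits of the membrane arm are encoded by mitochondrial DNA, and IACS binds at MT-ND1, a subunit of that kind, so that none of the 46 genes encodes the subunit to which the drug is known to bind. The nuclear accessory subunits surround the core and are needed for its assembly and stability, and the assembly factors help to build the enzyme without staying in it. Factors known from other work to act on promoters of nuclear respiratory genes include NRF1, the ETS factor GABP, YY1 and the estrogen-related receptors. The data below are levels of RNA, and neither complex I protein nor its activity was measured in these libraries.

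The promoters of some members, chosen as stated below, are printed here to show what the members share in sequence and where they differ. Promoter windows of 300 bases, from 250 bases before to 50 bases after the annotated start, were matched by symbol from RefSeq (GRCh38.p14) for 39 of the 46 genes. NDUFB9, NDUFA4, NDUFS5, NDUFAF6, NDUFC2 and NDUFB5 were among the 7 with no entry. Each window was searched on both strands for 5 short motifs: GCGCANGCG for NRF1, CCGGAAG for ETS factors, AAGATGGCG for YY1, CCAAT for the CCAAT box and AAGGTCA for the estrogen-related receptors. The YY1 letters were held by 7 of the 39 genes (17.9%), against 4.91% of the 9609 tested genes with a window and 2.14% of all 27305 genes in the table. The 7 were NDUFA6, NDUFA7, NDUFA9, NDUFAF8, NDUFB8, NDUFS4 and NDUFS7, a peripheral-arm or Q-module gene in 5 cases. The NRF1 letters were in 11 genes (28.2%, against 17.7% of tested genes and 9.02% of all), namely NDUFA3, NDUFA5, NDUFA8, NDUFA9, NDUFA11, NDUFA12, NDUFAB1, NDUFAF5, NDUFB4, NDUFS6 and NDUFS7. The ETS letters were in 7 genes (17.9%, against 23.9% and 12.2%), the CCAAT box in 12 (30.8%, against 43.1% and 39.7%) and the receptor letters in 4 (10.3%, against 3.55% and 4.80%). In all, 22 of the 39 genes held NRF1, ETS or YY1 letters. A match is a run of letters and not a measured binding site.

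The stretch from 120 bases before to 30 bases after the start is printed in lower case, with matches to those motifs in capitals. It is given for 3 genes with YY1 letters (NDUFA9, NDUFS7 and NDUFB8, of which NDUFA9 and NDUFS7 also hold NRF1 letters). It is also given for 4 of the genes that were lower in THP1 cells after 24 h of IACS when the replicates were paired. These 4, NDUFS6, NDUFAF2, NDUFA12 and NDUFS3, are not the whole of that set. NDUFA9 lies at chr12:4648994-4649143, plus strand, NDUFS7 at chr19:1383787-1383936, plus strand, and NDUFB8 at chr10:100529842-100529991, minus strand (the later of its 2 annotated starts). The window of the earlier NDUFB8 start held none of the motifs. NDUFS6 lies at chr5:1801287-1801436, plus strand, NDUFAF2 at chr5:60945085-60945234, plus strand, NDUFA12 at chr12:95003668-95003817, minus strand, and NDUFS3 at chr11:47578954-47579103, plus strand. The capitals mark AAGATGGCG in NDUFA9, NDUFS7 and NDUFB8, the NRF1 letters in NDUFA9, NDUFS7, NDUFS6 and NDUFA12 (in NDUFA9 and NDUFS7 on the opposite strand), both CCAAT letters in NDUFAF2 (the earlier on the opposite strand) and both ETS letters in NDUFS3 (the earlier on the opposite strand).
NDUFA9: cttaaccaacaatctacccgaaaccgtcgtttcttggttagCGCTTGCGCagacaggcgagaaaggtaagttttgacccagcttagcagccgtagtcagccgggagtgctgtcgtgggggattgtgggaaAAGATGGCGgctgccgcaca
NDUFS7: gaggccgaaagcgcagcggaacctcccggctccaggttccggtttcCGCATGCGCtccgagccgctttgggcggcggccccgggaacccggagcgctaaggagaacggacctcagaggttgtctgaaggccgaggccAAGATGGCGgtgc
NDUFB8: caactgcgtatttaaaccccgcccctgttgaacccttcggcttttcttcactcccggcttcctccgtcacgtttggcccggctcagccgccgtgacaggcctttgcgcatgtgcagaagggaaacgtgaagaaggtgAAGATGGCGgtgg
NDUFS6: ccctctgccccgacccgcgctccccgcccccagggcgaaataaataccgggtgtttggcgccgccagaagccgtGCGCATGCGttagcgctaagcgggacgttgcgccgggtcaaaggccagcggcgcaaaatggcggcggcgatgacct
NDUFAF2: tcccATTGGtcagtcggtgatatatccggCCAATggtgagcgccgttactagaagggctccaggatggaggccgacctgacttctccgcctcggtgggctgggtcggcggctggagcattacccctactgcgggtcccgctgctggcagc
NDUFA12: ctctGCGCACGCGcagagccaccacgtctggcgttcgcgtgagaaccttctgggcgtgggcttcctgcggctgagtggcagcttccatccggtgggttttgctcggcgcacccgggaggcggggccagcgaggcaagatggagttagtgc
NDUFS3: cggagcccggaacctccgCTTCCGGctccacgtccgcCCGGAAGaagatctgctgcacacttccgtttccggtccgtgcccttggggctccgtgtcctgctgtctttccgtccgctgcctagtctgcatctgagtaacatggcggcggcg
In NDUFS7 and NDUFB8 the YY1 letters begin 18 bases after the start, and in NDUFA9 they begin 11 bases after it. Of the 4 printed genes that were lower in THP1, NDUFS6 and NDUFA12 hold NRF1 letters in the printed stretch, NDUFAF2 CCAAT letters and NDUFS3 ETS letters. No motif is in all 4. The receptor letters of NDUFS6 begin 25 bases after the start and run past the printed end.

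TPM keep no depth, so no counting interval can be given, and the spread between the 3 libraries of a group is the error used throughout. Genes with at least 1 TPM numbered 13087 to 14450 per library. The myeloid identity of the cells was visible in both lines, with SPI1, a transcription factor of myeloid cells, at 85.6 to 147 TPM, while CD3E, HBB, EPCAM, CDH1 and COL1A1, markers of T cells, red cells, epithelium and stroma, were at or near 0 and the summed markers of other cell types lay between 15.3 and 70.9 TPM. Not every myeloid marker was high in both lines. ITGAM was at 0.784 to 1.52 TPM in MV4-11, against 18.7 to 27.4 TPM in THP1. MEIS1, a gene that KMT2A fusions are known to turn on, was at or near 0 in THP1. The share of TPM taken by 5 abundant noncoding RNAs (RN7SK, RPPH1, RMRP, RN7SL1 and RN7SL2) ran from 39.6% to 60.1%, which moves all other genes of a library together. For that reason changes are given beside the median of all genes tested. In MV4-11 the replicate 3 libraries of both IACS timepoints stood apart, with a noncoding share of 39.6% and 42.9% where the other libraries of that line had 47.3% to 51.9%, and with summed myeloid markers of 7947 and 7813 TPM. DMSO replicate 3 of that line had 6942 TPM of these markers, and replicates 1 and 2 of the 3 groups had 4567 to 5846 TPM. Most of each sum was LYZ, which ran from 3797 to 7073 TPM over the MV4-11 libraries. The part of these differences in the results was not tested, and the medians over the members, their classes and the related gene lists in MV4-11 are given with and without them where they move. In bulk RNA, fewer cells of a type and less RNA per cell cannot be told apart.

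Without IACS the 46 genes held 3242 ± 125.9 TPM (SD, n = 3) in MV4-11 and 2921 ± 385.7 TPM in THP1, and over the 18 libraries they took 0.209% to 0.391% of all TPM. Subunits of one enzyme were far from equal in RNA. Among the 37 subunits the DMSO means spanned 42.5-fold in MV4-11 and 87.5-fold in THP1, with medians of 66.7 and 54.8 TPM. The middle of that range was narrower, with quartiles of 30.5 and 80.5 TPM in MV4-11 and 29.4 and 78.0 TPM in THP1. The order of the genes was much alike in both lines (Spearman's rho 0.93 across 46 genes, a description, since genes share their library and their length scale).

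NDUFS5, an accessory subunit of the proximal membrane arm with twin cysteine motifs, had the highest level of all members in MV4-11, at 395, 417 and 405 TPM in the 3 DMSO libraries, and 421, 334 and 309.9 TPM in THP1. NDUFA1, a small membrane-arm subunit encoded on the X chromosome, followed with 317, 295 and 337 TPM in MV4-11 and 438, 353 and 295 TPM in THP1. In THP1 these 2 ranges overlap and their order cannot be told, whereas in MV4-11 every NDUFS5 value was above every NDUFA1 value. NDUFB7, of the distal membrane arm, came next in MV4-11 at 250.2, 272 and 309.7 TPM, with 159.8, 170.0 and 172 TPM in THP1. At the low end stood the assembly factor NDUFAF5 with 4.31, 3.54 and 3.44 TPM in MV4-11 and 3.11, 2.66 and 1.81 TPM in THP1. NDUFA9, a subunit of the Q-module region and the lowest of the 37 subunits, had 9.72, 9.42 and 9.51 TPM and 5.03, 4.03 and 3.35 TPM in the 2 lines.

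By class, the assembly factors were the lowest, with a median of gene means of 17.2 TPM in MV4-11 and 14.1 TPM in THP1. The distal membrane arm (72.8 and 69.7 TPM), the proximal membrane arm (67.3 and 54.8 TPM) and the N module (79.7 and 63.1 TPM) lay above the accessory subunits of the peripheral arm (53.9 and 40.9 TPM) and the Q module (35.1 and 35.7 TPM). Classes overlap widely, as each class of subunits holds genes below and above the median of the 37 subunits. The highest assembly factor, NDUFAF3, had a DMSO mean of 48.6 TPM in MV4-11, below that median, and 68.0 TPM in THP1, above it. The 7 mitochondrially encoded core subunits were higher than most nuclear ones, with medians of 325 TPM in MV4-11 and 462 TPM in THP1.

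**Figure D1:**
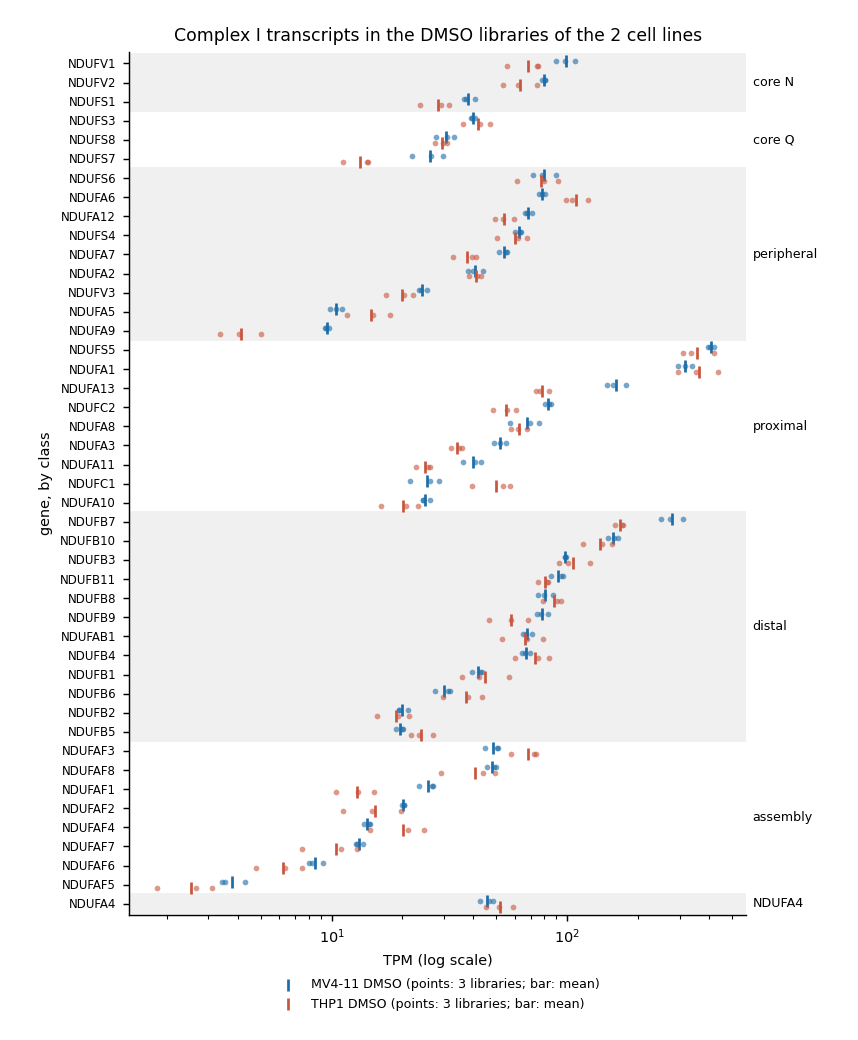
TPM on a log scale (x axis) of 45 of the 46 genes (y axis, grouped by class) in the 3 DMSO libraries of MV4-11 (blue) and THP1 (red), with bars at the means. NDUFS5 and NDUFA1 lie highest and NDUFAF5 lowest in both lines, and the colors separate most clearly for NDUFA9, NDUFA13, NDUFAF1 and NDUFC1.

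After 8 h of IACS no member passed the test in either line. The test was limma on log2(TPM + 1) across all genes, and a gene was called where its p, adjusted by Benjamini-Hochberg, was under 0.05 and its change exceeded 1.5-fold. In MV4-11, 0 of 46 genes were called by limma in either direction, where 0.00738% of the 13542 genes tested were called higher and 0.00738% lower. Before adjustment, 1 member was higher and 0 were lower at p under 0.05, against 3.39% and 0.997% of all genes. In THP1, 0 of 46 were called, where 0% of 13928 genes were called higher and 0.0144% lower, and 0 members reached an unadjusted p under 0.05 in either direction against 0.251% and 1.86% of all genes. An exact Kruskal-Wallis test over all groups of a line, unadjusted and with the same fold limit, also gave 0 members at both timepoints in both lines. Of the 13542 genes in MV4-11 it gave 23 higher and 5 lower at 8 h, and 99 and 11 at 24 h. Of the 13928 genes in THP1 it gave 5 higher and 11 lower at 8 h, and 20 and 42 at 24 h.

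The median log2 fold change of the members at 8 h was -0.01 in MV4-11, where the median of all genes was 0.06, and 34 of 46 members lay below that median. It was -0.09 in THP1, where the median of all genes was -0.12, and 18 of 46 lay below. Members thus sat 0.07 below the other genes' middle in MV4-11 and 0.03 above it in THP1, less than the spread between the libraries of a group. Without replicate 3 of the MV4-11 8 h group the difference in that line was -0.13 with 40 of 46 below, and without DMSO replicate 3 it was -0.03 with 27 of 46 below. Without replicate 1 of the THP1 8 h group the THP1 value was -0.0029 with 23 of 46 below.

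NDUFAF7, a methyltransferase that acts during assembly, had the most positive change in MV4-11 at 8 h. It stood at 13.7, 12.8 and 12.7 TPM in DMSO and 14.7, 15.2 and 20.5 TPM at 8 h, so that all treated libraries were above all controls. The log2 fold change was 0.33 (SE 0.13) and limma's adjusted p was 0.98. It was the only member above DMSO without overlap at 8 h (7.13% of all genes were), and NDUFS6 was the only one below (1.65% of all genes). NDUFS6, a zinc-binding accessory subunit at the joint of the N and Q modules, had 71.8, 78.1 and 89.9 TPM in DMSO and 62.7, 64.6 and 71.6 TPM at 8 h, a log2 fold change of -0.26 (SE 0.13). NDUFAF5, which hydroxylates NDUFS7, was next in the positive direction (0.25, SE 0.15), with 3.67, 4.72 and 5.67 TPM at 8 h. NDUFB9, of the distal membrane arm, was next in the negative direction (-0.17, SE 0.13), with 77.1, 74.3 and 82.8 TPM in DMSO and 66.2, 63.7 and 78.8 TPM at 8 h. Both overlapped DMSO. After median-of-ratios scaling, 6 members lay wholly below DMSO (12% of all genes), with NDUFC2, NDUFB4, NDUFB9, NDUFAB1 and NDUFS1 beside NDUFS6, and 1 wholly above (8.94%).

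In THP1 at 8 h the ends of the ranking were other genes. NDUFAF8, which acts with NDUFAF5, had 49.4, 43.8 and 29.2 TPM in DMSO and 34.1, 37 and 22.3 TPM at 8 h (-0.38, SE 0.22, limma's adjusted p 0.94). NDUFA5, of the peripheral arm, had 17.6, 15 and 11.6 and 12, 14 and 9.52 TPM (-0.29, SE 0.18). The core subunit NDUFS7, which carries the last iron-sulfur cluster before ubiquinone, had 14.2, 14.2 and 11.2 and 15.4, 17.2 and 12 TPM (0.15, SE 0.17), and NDUFB7 159.8, 170.0 and 172 and 193, 196 and 164 TPM (0.14, SE 0.13). Treated and control libraries overlapped in all of these, and no member of the 46 was clear of DMSO in either direction (0.704% of all genes were above and 4.06% below). After median-of-ratios scaling, NDUFV1, NDUFS4, NDUFS8, NDUFB5 and NDUFS7 lay wholly above DMSO, 5 members (10.9%) against 7.43% of all genes, and 0 members lay wholly below (5.54%).

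At 24 h the members lay lower, relative to all genes, in both lines, in steps too small for a call on most of them. In MV4-11 their median log2 fold change was -0.19 against 0.08 for all genes, a difference of -0.26, and 41 of 46 members lay below the median of all genes. In THP1 it was -0.29 against -0.12, a difference of -0.17, and 40 of 46 lay below. The median of all genes in THP1 was moved by 0.12 by dividing the libraries by median-of-ratios size factors, and the members' difference was then -0.16, again with 40 of 46 below. In MV4-11 it was -0.27 with 41 of 46 below. Relative to all genes, 37 genes were below the middle in both lines at 24 h, 4 in MV4-11 alone (NDUFA1, NDUFS4, NDUFA7 and NDUFB5), 3 in THP1 alone (NDUFA10 and NDUFS7 among them) and 2 in neither (NDUFAF5 and NDUFAF7).

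None of the 46 members was called at 24 h by limma in either line. In MV4-11 0.0738% of all genes were called higher and 0.0148% lower, and at an unadjusted p under 0.05 1 member was higher and 9 were lower, against 9.66% and 2.36% of all genes. In THP1 0.00718% of all genes were called higher and 0.0359% lower, and at an unadjusted p under 0.05 there were 0 higher and 15 lower members, against 1.49% and 7.12% of all genes. By plain overlap of the libraries, 11 members in MV4-11 lay wholly below DMSO (23.9%, against 5.26% of all genes) and 2 wholly above (against 19.4%). In THP1 17 lay wholly below (37.0%, against 10.2% of all genes) and 0 wholly above (against 3.32%). After median-of-ratios scaling, 12 members in MV4-11 lay wholly below (26.1%, against 11.8% of all genes) and 1 wholly above (12.6%), and in THP1 26 lay wholly below (56.5%, against 13.7%) and 0 wholly above (13.1%). Since the 2 timepoints of a line share their DMSO libraries, a low or high control moves both.

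**Figure D2:**
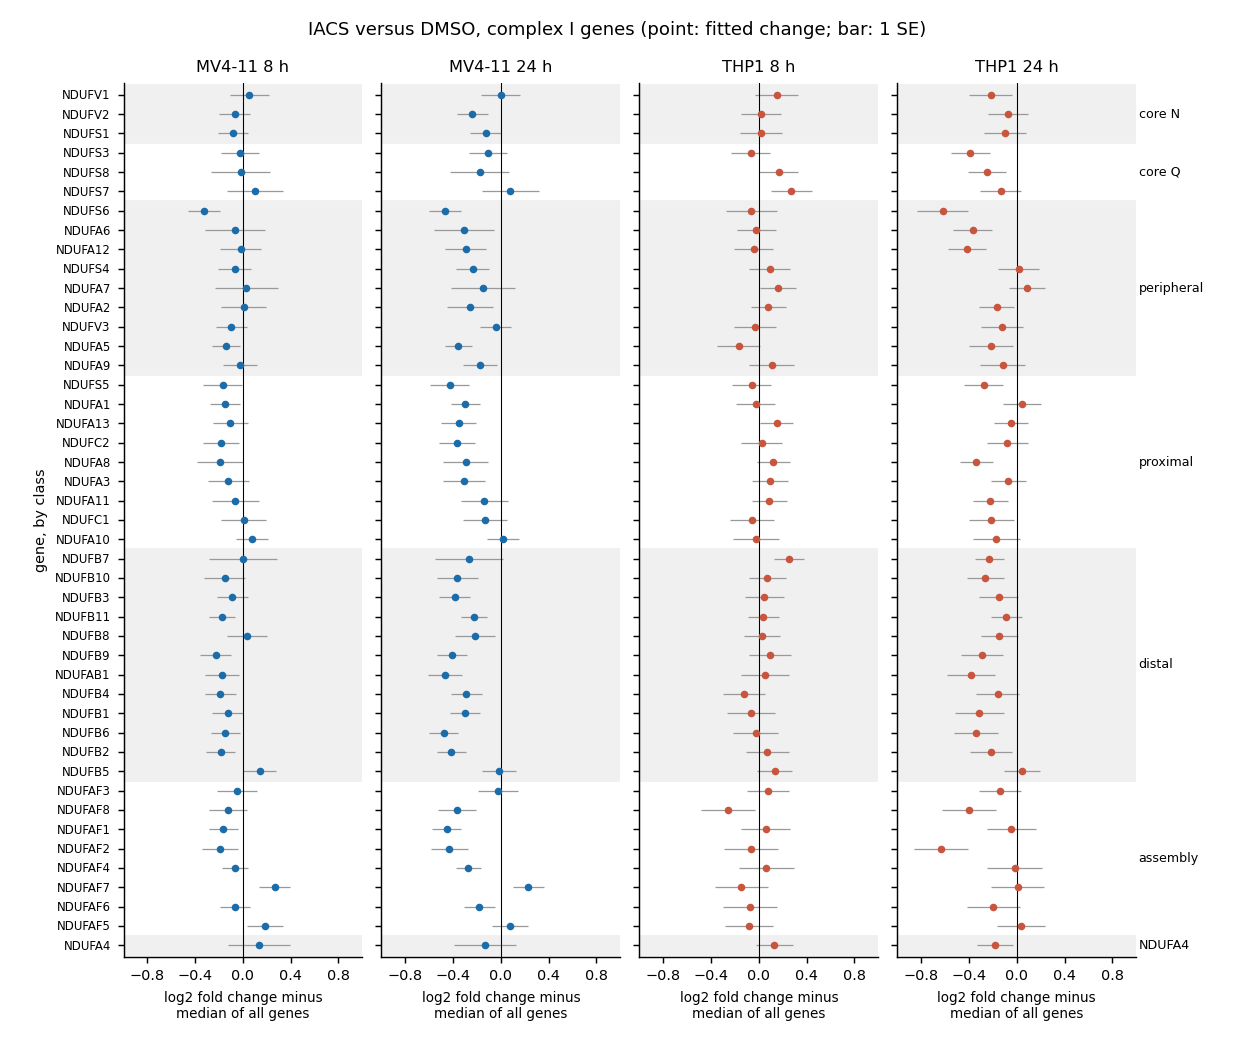
Log2 fold change of IACS against DMSO minus the median of all genes (x axis, bars of 1 SE) for 45 of the 46 genes (y axis, by class) in 4 panels, MV4-11 and THP1 at 8 h and 24 h. At 8 h points lie on both sides of 0, mostly left of it in MV4-11 and mostly right of it in THP1. At 24 h 41 of 45 lie left of 0 in MV4-11 and 39 of 45 in THP1.

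Library by library the shift was uneven. In MV4-11 at 24 h the members' median minus that of all genes, each against the line's DMSO mean, was -0.38 in replicate 1 and -0.44 in replicate 2 but 0.01 in replicate 3 (SD 0.24). The DMSO libraries of the line lay between -0.07 and 0.10. In THP1 at 24 h the 3 libraries lay at -0.12, -0.23 and -0.15 (SD 0.05), all below the 3 DMSO libraries at -0.02 to 0.04. Replicate 3 of MV4-11 at 24 h is also one of the libraries with a low noncoding share and a high sum of myeloid markers, mostly LYZ. Without it the median difference in MV4-11 was -0.42 with 44 of 46 members below, and 0 were called (smallest adjusted p in limma 0.070). Without replicate 2 of the 24 h group it was -0.17.

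**Figure D3:**
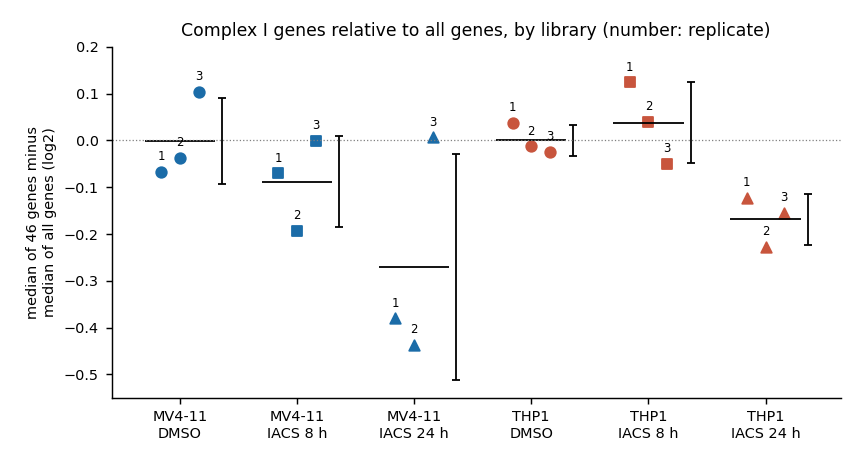
Median over the 46 genes of the log2 difference from the mean of the line's DMSO libraries, minus the same over all genes (y axis), for each of the 18 libraries (points with replicate numbers) with the mean (line) and SD (bar) of each group (x axis). The THP1 24 h libraries at -0.12, -0.23 and -0.15 lie below all THP1 DMSO libraries, and in MV4-11 replicate 3 at 24 h lies with the controls.

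In MV4-11 at 24 h the most negative member was NDUFB6, an accessory subunit of the distal membrane arm. It had 27.4, 31.7 and 31.2 TPM in DMSO, 25.7, 27.4 and 32 TPM at 8 h and 24.1, 20.6 and 23 TPM at 24 h, with all 24 h libraries below all controls. Its log2 fold change at 24 h was -0.40 (SE 0.12, limma's adjusted p 0.22), and after median-of-ratios scaling it was -0.48 with an adjusted p of 0.039 in limma, short of the fold limit (1.14% of all genes were lower by adjusted p in that fit). NDUFS6 followed at -0.39 (SE 0.13, limma's adjusted p 0.28), with 55.6, 55.3 and 71.5 TPM, again wholly below DMSO. At the other end NDUFAF7 stayed above DMSO with 16.5, 16.6 and 16 TPM (0.31, SE 0.13, limma's adjusted p 0.37). It was 1 of the 2 members wholly above DMSO at 24 h in MV4-11.

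In THP1 at 24 h the largest differences were those of NDUFAF2 and NDUFS6. NDUFAF2, an assembly factor that holds the place of NDUFA12 in the unfinished enzyme and lies at chr5:60945177-61154531 (GRCh38, plus strand), had 19.6, 14.9 and 11.2 TPM in DMSO, 13.1, 16.2 and 10.2 TPM at 8 h and 7.29, 10.7 and 7.60 TPM at 24 h. NDUFS6, at chr5:1801407-1816048 (plus strand), had 91.5, 80.0 and 61.2, then 75.1, 75.6 and 53.8, then 47, 58.4 and 34.3 TPM. All 24 h libraries of both genes were below all controls. The log2 fold changes at 24 h were -0.75 (SE 0.22) for NDUFAF2 and -0.74 (SE 0.22) for NDUFS6, both past the fold limit, with adjusted p of 0.45 and 0.44 in limma. Nearest to 0 were NDUFA7, with 41.1, 32.7 and 39.3 TPM in DMSO and 37, 40.4 and 33.3 TPM at 24 h (-0.03, SE 0.15), and NDUFA1, with 359, 346 and 316 TPM at 24 h (-0.07, SE 0.16). Both overlapped DMSO, and no member had a positive fitted change in THP1 at 24 h.

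Between THP1 DMSO and 24 h the libraries of the same replicate number deviated together, and the paired fit changed the calls. Replicate 3 was the lowest of the 3 libraries for NDUFS6 in both groups, for instance. With the replicate number as a block in limma, NDUFS6 had -0.74 (SE 0.099, adjusted p 0.0026) and NDUFAF2 had -0.75 (SE 0.15, adjusted p 0.011), so that 2 of 46 members were called lower and 0 higher, where 1.73% of all genes were called lower and 0.395% higher. By adjusted p alone 17 of 46 members (37.0%) were lower in that fit, against 11.1% of all genes. NDUFS3, a core Q-module subunit, had 47, 42.9 and 36.1 TPM in DMSO and 31.7, 30.1 and 25.8 TPM at 24 h (-0.51, SE 0.087, adjusted p 0.0065 in the blocked limma fit). NDUFA12, the accessory subunit that takes the place of NDUFAF2, had 59.3, 53.4 and 49.6 and 40.7, 37.3 and 33.2 TPM (-0.53, SE 0.11, adjusted p 0.014 in the same fit). The 17 were 3 of the 7 core subunits (NDUFS3, NDUFS8 and NDUFV1), 12 of the 30 accessory subunits and 2 of the 8 assembly factors (NDUFAF2 and NDUFAF8).

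Median-of-ratios scaling of the same THP1 libraries, without the block, called the same 2 genes, NDUFAF2 (-0.62, adjusted p 0.031 in limma) and NDUFS6 (-0.60, adjusted p 0.026 in limma), where 0.343% of all genes were called lower and 0.393% higher. NDUFA12 and NDUFS3 passed by adjusted p alone in that fit (0.047 and 0.043 in limma), 4 members in all against 1.76% of all genes. The direction of these 4 genes was the same under both scalings. In MV4-11 at 24 h the blocked fit gave 0 members by adjusted p in limma and 14 lower at an unadjusted p under 0.05 (2.99% of all genes).

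**Figure D4:**
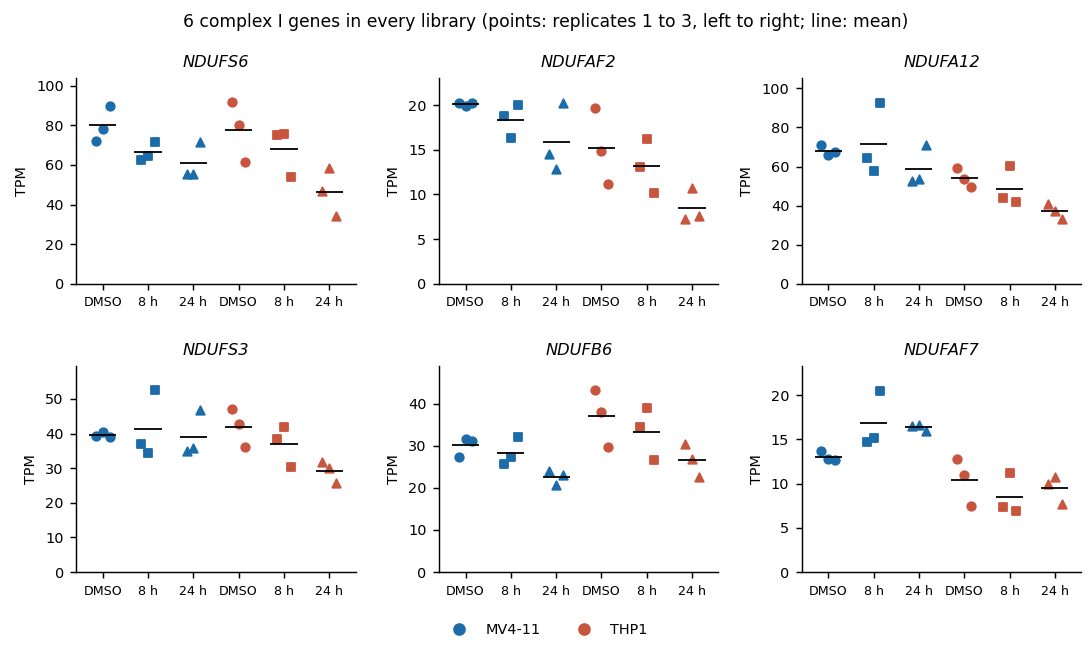
TPM (y axis, from 0) of NDUFS6, NDUFAF2, NDUFA12, NDUFS3, NDUFB6 and NDUFAF7 in each library (points, replicates 1 to 3 from left to right within a group, line at the mean) of MV4-11 (blue) and THP1 (red) by treatment (x axis). In THP1 the 24 h points of NDUFS6, NDUFAF2, NDUFA12 and NDUFS3 lie below all DMSO points, and in MV4-11 those of NDUFB6 and NDUFS6 do, whereas the MV4-11 points of NDUFAF7 at 24 h lie above its DMSO points.

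The medians of the subunit classes lay further apart in MV4-11 than in THP1. In MV4-11 at 24 h the 30 accessory subunits had a median log2 fold change of -0.30 relative to all genes, with 29 of 30 below, and the 12 of the distal membrane arm -0.33 with 12 of 12 below. The 9 of the proximal arm were at -0.30 and the 9 of the peripheral arm at -0.26. The 7 core subunits were at -0.11 with 5 of 7 below, the Q module at -0.01 and the N module at -0.13. Without replicate 3 of the 24 h group these were -0.46 for the accessory subunits (30 of 30 below), -0.51, -0.43 and -0.45 for the distal, proximal and peripheral arms, -0.22 for the core (7 of 7 below), -0.24 for the Q module and -0.20 for the N module. In THP1 the medians were -0.19 for the accessory subunits with 26 of 30 below, -0.13 for the core with 7 of 7 below, -0.19 for the Q module, -0.10 for the N module and -0.09 for the assembly factors. These medians are descriptions with no test, since the genes of a class share their libraries.

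The values of 6 core subunits show how small the shifts were. NDUFV1, the flavin-bearing subunit that oxidizes NADH, had 89.6, 97.8 and 108 TPM in DMSO and 96.5, 89.1 and 128 TPM at 24 h in MV4-11, and 75, 74.5 and 55.5 and 56, 61.9 and 44.1 TPM in THP1. NDUFV2, its partner with an iron-sulfur cluster, had 80.5, 78.2 and 80.3 and 66.8, 64.7 and 83.2 TPM in MV4-11, and 74.3, 61.9 and 53.2 and 61.7, 55.6 and 47.6 TPM in THP1. NDUFS1, the largest nuclear core subunit, had 40.5, 37.2 and 36.4 and 35.5, 35.4 and 39.1 TPM in MV4-11, and 31.5, 29.3 and 23.7 and 25.7, 26.2 and 20.6 TPM in THP1. Treated and control libraries of these 3 N-module genes overlapped in both lines. In the Q module, NDUFS3 had 39.4, 40.6 and 39.1 and 35, 35.7 and 46.7 TPM in MV4-11, where replicate 3 was the only 24 h value above DMSO. NDUFS8, which carries 2 iron-sulfur clusters, had 27.8, 30.8 and 33 and 23.4, 21.8 and 44.4 TPM in MV4-11, with replicate 3 again highest, and 29.7, 30.8 and 27.6 and 22.9, 26 and 19.3 TPM in THP1, where all 24 h values were below DMSO. NDUFS7 had 22, 26.4 and 29.8 and 24.4, 23 and 43.2 TPM in MV4-11, and in THP1 11.6, 11.9 and 9.25 TPM at 24 h, overlapping its DMSO values.

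The 8 h values of the core genes not yet given were, for NDUFV1, 96.5, 96.6 and 129 TPM in MV4-11 and 71.1, 80.5 and 57.8 TPM in THP1. NDUFV2 had 78, 70.1 and 90.8 and 58.8, 67.8 and 49.4 TPM and NDUFS1 33.2, 34.9 and 44.7 and 25.7, 31.8 and 21.5 TPM in the same order. In MV4-11 replicate 3 was the highest 8 h library for each of them. NDUFS3 had 37, 34.5 and 52.7 and 38.5, 41.8 and 30.2 TPM, and NDUFS8 had 27.3, 26.4 and 43 and 29.5, 36.7 and 25.9 TPM. NDUFS7 had 24.7, 25.1 and 39.5 TPM in MV4-11.

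Some members were wholly below DMSO at 24 h in both lines: NDUFAB1, NDUFB1, NDUFB9, NDUFS5 and NDUFS6, 5 of 46 where 1.4% of the 12555 genes tested in both lines were. After median-of-ratios scaling there were 8 (3.79% of all genes), with NDUFA5, NDUFAF6, NDUFB2 and NDUFB6 added and NDUFS6 lost. NDUFAB1, the mitochondrial acyl carrier protein, which is bound in complex I and also serves fatty acid and lipoic acid synthesis, had 65.1, 66.5 and 70.7 TPM in DMSO and 48.2, 43.9 and 63.4 TPM at 24 h in MV4-11, and 79.3, 67.2 and 52.8 and 52.7, 45 and 41.3 TPM in THP1. NDUFB9 had 56.8, 58.3 and 71 TPM at 24 h in MV4-11, and 68.4, 58 and 46.6 and 45.9, 45.2 and 37.3 TPM in THP1. NDUFS5 had 293, 284 and 385 TPM at 24 h in MV4-11 and 287, 282 and 238 TPM in THP1. NDUFB1 had 43.5, 39.4 and 42.7 and 36.6, 31.9 and 38.8 TPM in MV4-11, and 56.6, 42.1 and 35.9 and 35, 32.1 and 30.5 TPM in THP1. The gaps were narrow. For NDUFS6 in MV4-11 the lowest DMSO library had 71.8 TPM and the highest 24 h library 71.5 TPM, and for NDUFAB1 in THP1 the values were 52.8 and 52.7 TPM. No member was clear of DMSO in all 4 comparisons.

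NDUFB8, a distal subunit that is often used as a protein marker of complex I assembly, was a middling member. It had 75.1, 79.8 and 86.6 TPM in DMSO and 66.2, 63.8 and 92.1 TPM at 24 h in MV4-11, overlapping, and 94.4, 90.3 and 78.7 and 77.4, 78 and 64.2 TPM in THP1, just clear of each other. Its log2 fold changes at 24 h were -0.14 (SE 0.17) and -0.26 (SE 0.15, adjusted p 0.63 in limma). NDUFA4, the complex IV subunit, had 59, 45.1 and 51.6 and 44.6, 40.4 and 40.2 TPM in THP1, also just clear, and 46.5, 42.8 and 48.2 and 37.4, 34.6 and 65.9 TPM in MV4-11, where replicate 3 was above DMSO and replicates 1 and 2 were below. Its log2 fold changes were -0.30 in THP1 and -0.05 in MV4-11, with no call.

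Between the timepoints of IACS, which do not share libraries, the members were lower at 24 h than at 8 h relative to all genes in both lines. The difference of the medians was -0.17 in MV4-11 and -0.20 in THP1, with 43 of 46 members below the median of all genes in each line. None was called by limma, where 0% of all genes were called higher or lower in MV4-11, and 0% higher and 0.00718% lower in THP1. At an unadjusted p under 0.05 there were 2 lower members in MV4-11 (0.775% of all genes) and 7 in THP1 (2.3%), and 0 higher members in either (1.53% and 2.69%). In the THP1 fit with the replicate block, 7 members were lower by adjusted p alone (1.63% of all genes), none of them past the fold limit: NDUFS6 (-0.56, adjusted p 0.020 in limma), NDUFB7 (-0.48), NDUFA8, NDUFS8, NDUFS7, NDUFV1 and NDUFB9. Leaving out replicate 3 of the MV4-11 24 h group moved the difference in that line from -0.17 to -0.30, leaving out replicate 2 of that group moved it to -0.08, and leaving out replicate 3 of the 8 h group moved it to -0.11.

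Whether the lines responded differently was tested by the interaction in 1 limma fit of all 18 libraries. No member passed at either timepoint, where 0% of 14117 genes were higher in THP1 and 0.00708% lower at both times, and at an unadjusted p under 0.05 there was 1 lower member at 8 h (3.04% of all genes), NDUFAF7, with 0.33 in MV4-11 and -0.27 in THP1 (difference -0.59, SE 0.27, adjusted p 0.91 in limma). At 24 h the response of the members in THP1 minus that in MV4-11 had a median 0.04 above that of all genes, and at 8 h 0.11 above. NDUFS3 had the most negative difference at 24 h (-0.47) and NDUFAF1 the most positive (0.22), with a smallest adjusted p of 0.69 in limma. The Q module was at -0.18 relative to all genes and the accessory subunits at 0.09. Both values include replicate 3 of the MV4-11 24 h group. Without that library the MV4-11 medians of both classes lay further below all genes, as given above. The Q-module medians of the lines then change order, so the side of that class in this comparison may depend on that library. The accessory medians of the lines keep their order. A difference between the lines in how complex I genes respond was thus not detected at this number of libraries.

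The clearest differences among the members were between the cell lines without drug. In DMSO, 8 of 46 members were called lower in THP1 than in MV4-11 by limma and 1 higher, where 17.2% of all 14117 genes were called lower and 19.7% higher. The share of members called lower (17.4%) was that of all genes, while the share called higher (2.17%) was below it. The members' median log2 difference was -0.20 against 0.01 for all genes, with 30 of 46 below the middle. By adjusted p alone 12 were lower and 3 higher, against 24% and 26% of all genes. The 3 libraries of one line were wholly below those of the other for 20 members in THP1 (30.9% of all genes) and wholly above for 7 (29.8%). All 3 N-module genes had lower values in THP1, with a median of -0.43, but none passed the fold limit.

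NDUFA9, at chr12:4649095-4694317 (GRCh38, plus strand), had the largest difference. Its 9.72, 9.42 and 9.51 TPM in MV4-11 stood against 5.03, 4.03 and 3.35 TPM in THP1, a log2 difference of -1.05 (SE 0.17, limma's adjusted p 3.6e-05). NDUFA13, a proximal membrane-arm subunit also known as GRIM-19, had 147, 157 and 178 TPM in MV4-11 and 83.5, 76.6 and 73.8 TPM in THP1 (-1.03, SE 0.14, limma's adjusted p 5.4e-06). NDUFAF1, an assembly factor of the membrane arm, had 23.4, 26.8 and 26.7 and 15.2, 12.9 and 10.4 TPM (-0.96, SE 0.17, limma's adjusted p 0.00014). In the opposite direction, NDUFC1, a small proximal subunit at chr4:139266880-139302551 (minus strand), had 21.5, 26.1 and 28.5 TPM in MV4-11 and 56.9, 53.3 and 39.4 TPM in THP1 (0.94, SE 0.20, limma's adjusted p 0.00064). No values overlapped between the lines in these 4 genes, and in each the order of the lines was the same at 8 h and 24 h. NDUFA9 had 8.37, 7.99 and 10.4 TPM in MV4-11 and 3.72, 3.43 and 2.89 TPM in THP1 at 24 h, for example, and NDUFC1 had 23.1, 19.7 and 31.3 and 39.2, 42.9 and 35.4 TPM. The other genes called lower in THP1 were NDUFS7 (-0.93), NDUFB7 (-0.72), NDUFA11 (-0.65), NDUFC2 (-0.60) and NDUFA3 (-0.59). NDUFC2 is less certain, since it shares exons with the readthrough symbol NDUFC2-KCTD14, which had a mean of 7.43 TPM.

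Of the 8 members lower in THP1, 5 lie on chromosome 19. That chromosome carries 6 of the 46 genes, NDUFA13, NDUFS7, NDUFB7, NDUFA11, NDUFA3 and NDUFA7, with log2 differences between -1.03 and -0.51 and a median of -0.69. The 923 tested genes of the chromosome had a median of -0.62, the lowest of the 23 chromosomes, and 51.2% of them were called lower in THP1. The chromosome 19 members lay around that median. The 40 members on other chromosomes had a median of -0.08 against 0.05 for all other tested genes, and 3 of them were called lower, NDUFA9 on chromosome 12 (chromosome median -0.09), NDUFAF1 on chromosome 15 (0.05) and NDUFC2 on chromosome 11 (0.01). NDUFC1 stood at 0.94 where its chromosome 4 had a median of 0.09. NDUFAF4, on chromosome 6, differed by 0.45 where that chromosome's median was 0.43. Relative to their own chromosome 28 of 46 members were lower, with a median difference of -0.10. DNA copy number was not measured in these libraries, and its part was not tested. Spearman's rho between the GC content of transcripts and the difference between the lines was -0.33 in the members and -0.20 over all genes with a GC value. The part of GC content was not tested either.

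**Figure D5:**
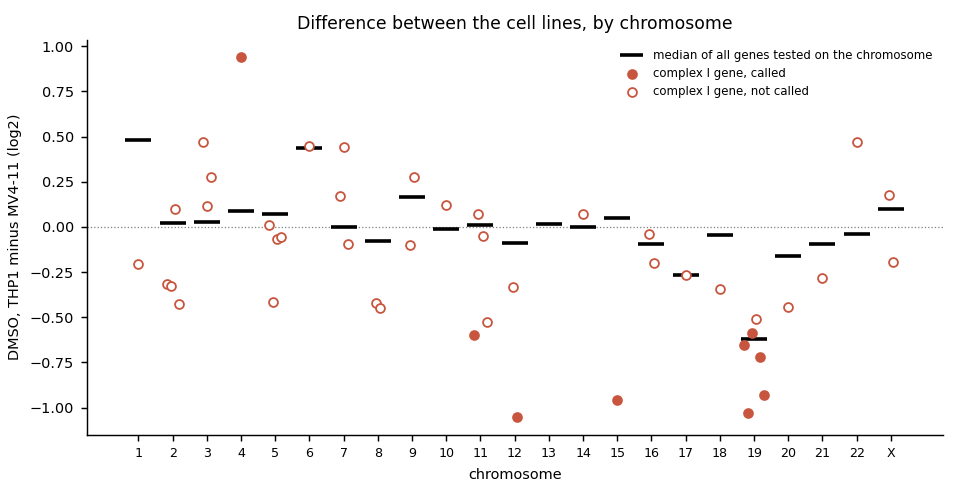
Log2 difference between the DMSO libraries, THP1 minus MV4-11 (y axis), for 45 of the 46 genes (circles, filled where called) and as the median of all tested genes (bars) on each chromosome (x axis). The chromosome 19 bar is the lowest at -0.62, and its 6 complex I genes lie around it, whereas NDUFA9 on chromosome 12, NDUFAF1 on 15 and NDUFC1 on 4 lie far from theirs.

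Other genes of complex I and of the respiratory chain were followed as lists. At 24 h the 41 nuclear subunits of complexes II to V had medians of -0.23 (39 of 41 below the median of all genes) in MV4-11 and -0.15 (37 of 41 below) in THP1 relative to all genes, beside the members' -0.26 and -0.17. Without replicate 3 of the MV4-11 24 h group the 41 genes stood at -0.40 (40 of 41 below), beside the members' -0.42. A further 16 assembly factors of complex I had -0.19 (13 of 16 below) in MV4-11 and -0.18 (12 of 16 below) in THP1, and the MV4-11 value was -0.27 without that library. In neither list was a gene called by limma against DMSO at 24 h. At an unadjusted p under 0.05 in limma, 2 and 13 of the 41 were lower in MV4-11 and THP1, and 1 and 0 of the 16. Over all genes this share was 2.36% in MV4-11 and 7.12% in THP1. Of the 11 regulators of nuclear respiratory genes, 10 were tested, with -0.13 and -0.05, and PPARGC1A was at or near 0 TPM in both lines.

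The 7 mitochondrially encoded subunits of complex I were set beside the nuclear members. At 8 h their median was -0.38 relative to all genes in MV4-11 (7 of 7 below) and -0.24 in THP1 (6 of 7 below), while the nuclear members stood at -0.07 and 0.03. Without replicate 3 of the MV4-11 8 h group the first value was -0.51 (6 of 7 below). In THP1 it ran from -0.36 without replicate 3 of the 8 h group to -0.15 without replicate 2. At 24 h the median was -0.13 in MV4-11, and it ran from -0.35 without DMSO replicate 3 to 0.02 without DMSO replicate 1, with -0.0087 without replicate 3 of the 24 h group. In THP1 it was 0.11, but the 3 libraries of the 24 h group lay at -0.14, 0.90 and -0.26, and without replicate 2 the median was -0.26 with 6 of 7 below. From 8 h to 24 h the median was 0.31 above that of all genes in MV4-11, and 0.25 above in THP1, where it was -0.17 without replicate 2 of the 24 h group. The THP1 value thus rests on 1 library. MT-ND1, the subunit at the drug's binding site, ran from 215 to 472 TPM over the libraries of MV4-11 and from 309 to 888 TPM in THP1. None was called by limma against DMSO, with 2 lower at an unadjusted p under 0.05 at 8 h in each line. Over all genes that share was 0.997% in MV4-11 and 1.86% in THP1. MT-ND3 in THP1 was at -1.40 (SE 0.33, adjusted p 0.31 in limma) at 24 h, and after median-of-ratios scaling at -1.26 with an adjusted p of 0.043. Mitochondrial transcripts took 1.08% to 2.77% of all TPM, and within the MV4-11 group at 8 h alone this share ran from 1.16% to 2.09%.

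Members are short genes. The median length of their transcripts was 668 bases against 1898 bases for the genes tested in MV4-11, and their median GC content 48.6% against 49.5%. Within the members, Spearman's rho between transcript length and log2 fold change was 0.37 at 8 h and 0.49 at 24 h in MV4-11, and -0.03 and 0.25 in THP1, a description across 46 genes that share their libraries. Across all genes with a length, the same rho was 0.03 and 0.05 in MV4-11 and -0.02 and 0.13 in THP1.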

How the data were processed

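RNA was sequenced in 18 libraries of MV4-11 and THP1, 3 for each of DMSO, IACS for 8 h and IACS for 24 h. Per the labels, the deposited values are TPM, given for 45372 gene symbols. According to the methods and the labels, TruSeq v2 libraries were read as 100-bp pairs on a NovaSeq 6000, trimmed, and aligned to GRCh38 (hg38) with CLC Genomics Workbench v20. Neither the annotation release nor the use of strand is given in the sources used here, so reads of overlapping antisense genes and near-identical copies may be shared. A library's TPM sum to 1000000 and keep no depth. Groups were taken from the labels, 0 columns were unused, and 0 pairs of libraries were identical.

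From the TPM, log2(TPM + 1) was tested by limma 3.58.1 (R 4.3.3, variance trend) for genes averaging 1 TPM or more in the libraries fitted, 9 libraries per cell line, or all 18 for the interactions and for the difference between the lines in DMSO. A fold change on this scale understates the change of low genes. Calls needed a p under 0.05 after Benjamini-Hochberg adjustment and a change beyond 1.5-fold. The p-values measure the spread between libraries described as independent replicates. On simulated data the MV4-11 24 h fit (13452 genes) recovered 90% of changes of 1 and 99% of changes of 2 on the log2 scale, and the THP1 24 h fit (13810 genes) 71% and 99%, with 3 false calls each. The 200 changed genes of each fit averaged over 10 TPM, and noise was drawn separately for each gene and library. Shifts shared by all genes of a library were not simulated, nor were smaller changes. These rates therefore do not give the power for the members' changes.

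Pairing by replicate number was checked with correlations, across genes, of deviations from the group means. All 3 were above 0.1 for THP1 24 h and DMSO (0.146, 0.157 and 0.324), THP1 24 h and 8 h (0.183, 0.277 and 0.357) and MV4-11 24 h and 8 h (0.110, 0.408 and 0.441), but not for the other comparisons with DMSO. Libraries of different replicate numbers reached 0.0998, 0.149 and 0.387 in the same comparisons, in that order. In each, the highest value for a shared number was that of replicate 3. The pairing comes from the data alone.

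Coordinates and transcript lengths are from GENCODE release 44 on GRCh38 and promoters from RefSeq (GRCh38.p14). Genes named with their values are the core subunits (1 core subunit and 1 marker of another cell type are not reported here), members called, the 2 highest and 2 lowest changes per comparison with DMSO, the 3 largest called differences between the lines in each direction, and members clear of DMSO in the same direction. NDUFA12, NDUFS3, NDUFB8, NDUFA4, NDUFAF4 and those on chromosome 19 were added after their values were seen. The members and gene lists were chosen with earlier results of these data known. Alternatives were another pseudocount (0.1), no filter, a filter at 10 TPM, 3 other scalings, the replicate block, no trend, other thresholds, only the 6 libraries compared, Kruskal-Wallis tests and leaving out each library. Python 3.11.15 with pandas 2.3.3, numpy 2.4.6, scipy 1.17.1 and matplotlib 3.10.9 was used for the rest.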

Additional observations from a re-analysis of the deposited data

How the results depend on the processing

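In THP1 at 24 h, 2 members were called lower (NDUFAF2 and NDUFS6) under median-of-ratios scaling, under the replicate block, under both together, and with the fold limit and p under 0.05 before adjustment, where limma as used above called 0; the replicate block changed no call of a member in the other comparisons. With no filter on low values the THP1 24 h difference of medians was -0.2823 in place of -0.17 and that of the 8 h interaction -0.007 in place of 0.11, since many genes near 0 TPM enter the median of all genes. At an unadjusted p with the fold limit the 8 h interaction had 1 member (NDUFAF7, lower). Between the lines in DMSO the difference of medians was -0.0702 among genes of at least 10 TPM, and 15 members (3 higher, 12 lower) passed by adjusted p with no fold limit. No paired analysis was possible because the replicate numbers are nested in the lines, for the difference between the lines in DMSO.

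Leaving out each library in turn moved the difference of medians from -0.126 to -0.0287 in MV4-11 at 8 h, from -0.42 to -0.1714 in MV4-11 at 24 h, from -0.3039 to -0.0846 between the MV4-11 timepoints, from -0.0029 to 0.0635 in THP1 at 8 h, from -0.1921 to -0.1392 in THP1 at 24 h, from -0.24 to -0.1688 between the THP1 timepoints, from 0.0473 to 0.1448 and from -0.0362 to 0.1753 in the interactions at 8 h and 24 h, and from -0.2687 to -0.1549 between the lines. Members called stayed at 0 in all of these but the difference between the lines, where they ranged from 7 to 11. With 3 libraries per group and no depth in the deposited values, a change of a member under the fold limit could not be told from the spread between replicates in most cases.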
